A study of Rattus norvegicus with 2 samples.

Results

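Among the HMGB2 sites called in both libraries, those whose peak ranked high in one list and low in the other, basal or phenylephrine (PHE), were described. Every peak on chromosomes 1 to 20 was given the percentile of its score within its own list, and basal and PHE peaks overlapping by at least 1 bp were joined into 8675 pairs. A pair was called a rise pair when its PHE peak was in the top 10% of the PHE list and its basal peak in the lower 50% of the basal list. It was called a fall pair when the basal peak was in the top 10% and the PHE peak in the lower 50%. There were 250 rise pairs, 2.88% of all pairs, and 669 fall pairs, 7.71%, so 919 of 8675 pairs were members. The members were chosen by the deposited scores of both lists, so these counts and all scores below are descriptions with no test.

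HMGB2 is an abundant non-histone chromatin protein of the high mobility group box family. Its box domains bind the minor groove of DNA with little preference for sequence, and the bound DNA is bent. Such proteins influence how accessible nucleosomal DNA is to other factors. Phenylephrine activates alpha-1 adrenergic receptors and causes cultured neonatal heart muscle cells to enlarge, a common model of cardiac hypertrophy.

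Both libraries came from ventricular myocytes of Sprague Dawley rat pups of age 1 day, kept in primary culture, with chromatin precipitated by an antibody against HMGB2. The basal library was from cells given no agent, and the PHE library from cells given 10 µM phenylephrine for 48 h. Each condition had 1 library, so the spread between cultures is unknown, and no source used here says how many animals or cultures were pooled. The deposited lists held 43721 basal and 42691 PHE peaks, of which 42482 and 41551 lay on chromosomes 1 to 20. The read depth behind a peak is unknown. The intervals below are 95% intervals that cover only counting error over the pairs, peaks or nearby calls counted, and neighbouring pairs are not independent. The files hold no expression values with which the labelled cell type could be checked.

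The same step in rank stood for unlike steps in score in both lists. The lowest score was 50.00 in both lists. The low peaks of the 10 rise and 10 fall pairs with the largest rank difference, described below, lay close to it. In the basal list the lower 50% ended at a score of 76.5 and the top 10% began at 197, a ratio of 2.58. In the PHE list the lower 50% ended at 62.3 and the top 10% began at 93.1, a ratio of 1.49. The PHE scores were thus packed more tightly: 29.7% of PHE peaks scored within 5 units of their list's median, against 10.9% of basal peaks. An equal step in percentile thus spanned a narrower range of scores in the PHE list. No source used here gives the scale of the score, so the shares within 5 units and the range of scores compare the lists only if their scales are alike. Scores of single peaks were not compared between lists.

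In rise pairs the median PHE score was 107 (quartiles 98.9 and 120.6), which is 1.72 times the median of the PHE list, and the median basal score was 63.2 (56.8 and 70.6). In fall pairs the median basal score was 268 (226 and 328), or 3.50 times the median of the basal list, and the median PHE score was 55.8 (52.7 and 58.8). By their medians, the high peaks of the member pairs scored below the peaks of pairs that were high in both lists. Pairs in the top 10% of both lists, of which there were 962, had a median basal score of 309 and a median PHE score of 127. Pairs in the lower 50% of both lists, of which there were 905, had medians of 61.5 and 55.3, close to the low peaks of the member pairs.

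Opposite ranks were less frequent among pairs with a high peak than low ranks were among pairs at large. Of the 2111 pairs with a PHE peak in the top 10%, 11.8% (10.5 to 13.3%) had a basal peak in the lower 50%, while 23.3% (22.4 to 24.2%) of all pairs had one. Of the 2573 pairs with a basal peak in the top 10%, 26.0% (24.3 to 27.7%) had a PHE peak in the lower 50%, against 35.0% (34.0 to 36.0%) of all pairs. Across the 8675 pairs the basal and PHE percentiles had a Spearman's rho of 0.26. This correlation is across sites of 1 pair of libraries, and both peaks of a site share its sequence and mappability.

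**Figure D1:**
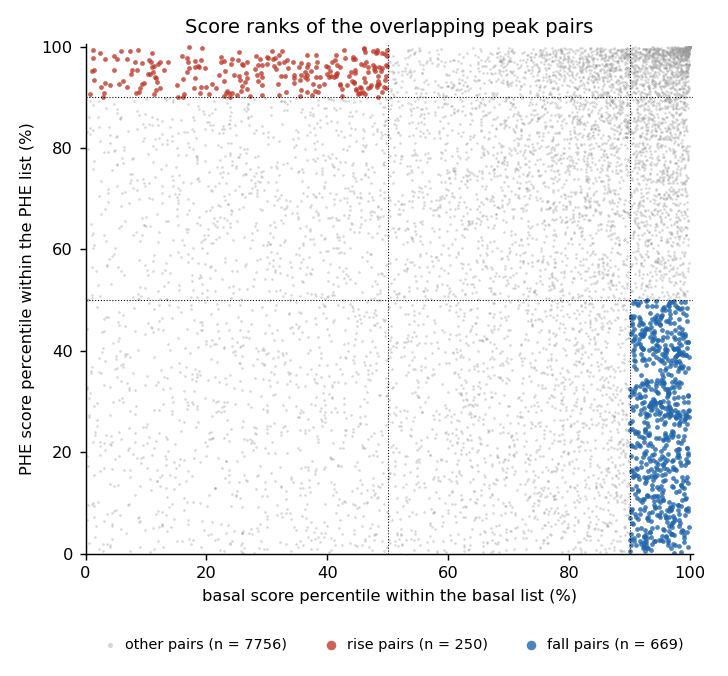
Each point is 1 overlapping pair, placed by its basal score percentile (x axis, %) and its PHE score percentile (y axis, %); dotted lines mark 50 and 90%. The 250 rise pairs fill the upper left box and the 669 fall pairs the lower right one, and the densest part is the upper right corner, where both peaks rank high.

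By the rule every member differed by at least 40 percentile points. Of these, 14 rise pairs had a PHE peak in the top 1% of its list, and 52 fall pairs had a basal peak in the top 1%. Pairs that went from the lowest 10% to the top 10% numbered 33 among rise pairs, and 130 fall pairs had a basal peak in the top 10% and a PHE peak in the lowest 10%. Many members lay close to a threshold. Of the rise pairs, 89 had a high peak at or below the 92nd percentile or a low peak above the 45th, and so did 171 fall pairs.

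The pairs nearest to the thresholds differed little in score from those just outside. The rise pair with the lowest PHE score, 93.06, lay on chromosome 5 with its basal peak at 135991400 to 135992106. A pair on chromosome 3, with its basal peak at 3594889 to 3596558, scored 93.05 in the PHE list and was not a member. The fall pair with the lowest basal score, 197.6, lay on chromosome 11 at 25438881 to 25444909, and a pair on chromosome 2 at 174266202 to 174267500 with 197.4 was left out. These steps are as small as 0.01 of a score unit. At the lower thresholds, the rise pair with the highest basal score (76.41, chromosome 15 at 35907063 to 35909702) stood beside a pair left out at 76.53 (chromosome 4 at 161160053 to 161161663). The fall pair with the highest PHE score (62.30, chromosome 14 at 10079731 to 10081603) stood beside a pair left out at 62.33 (chromosome 4 at 120065588 to 120066793).

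Of the 10 rise pairs with the largest difference in rank, 5 lay on chromosome 10, which held 11.2% of all rise pairs and 7.41% of all pairs. On that chromosome the basal peak at 5091946 to 5092794 scored 50.4, at the 1.17 percentile of its list, and the PHE peak at 5092294 to 5093436 scored 170.1, at the 99.30 percentile. The peaks shared 501 bp, and the PHE peak was the wider, at 1143 bp against 849 bp. The next pair, on chromosome 8, had a basal peak at 12164107 to 12165076 (percentile 1.28) and a PHE peak at 12163864 to 12164406 (percentile 97.81). In both pairs the PHE peak reached past an edge of the basal peak. On chromosome 7 the basal peak at 138555850 to 138556767 (percentile 2.44) met a PHE peak at 138556413 to 138557620 (percentile 98.77) over 38.7% of the basal peak. A pair on chromosome 6 was nested instead: its PHE peak at 127764460 to 127765191 (percentile 97.54) lay wholly inside the basal peak at 127764417 to 127765559 (percentile 3.15).

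Of the remaining 6 rise pairs among the 10 with the largest difference, 4 were on chromosome 10. Their basal peaks lay at 39193599 to 39195129, 46585688 to 46586397, 108406033 to 108407023 and 68723758 to 68725281, with PHE percentiles of 95.10, 95.38, 98.22 and 93.49 in this order. The first of these had another basal peak only 0.403 kb away. The other two pairs had their basal peaks on chromosome 7 at 11550672 to 11552534, with a PHE percentile of 99.18, and on chromosome 3 at 166721036 to 166722441, with 97.45. At the chromosome 7 site the peak centres were 1018 bp apart, and the overlap covered 44.9% of the narrower peak.

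In 9 of the 10 fall pairs with the largest difference in rank the PHE peak lay wholly inside a broader basal peak. The first, on chromosome 1 at 47962270 to 47964932, had a basal score of 695.8 (percentile 99.69) over 2663 bp, and its PHE peak at 47963488 to 47964147 scored 50.24 (percentile 1.32). A second PHE peak at 47962835 to 47963447, at the 19.81 percentile, lay on the same basal peak. Both PHE calls at this site were thus low in their list. The next, on chromosome 1 at 157773080 to 157775304, had a basal percentile of 98.49 and a single PHE peak at the 0.40 percentile. The next after it, also on chromosome 1, at 235680637 to 235683254, had a basal percentile of 97.41 and PHE peaks at the 0.20 and 40.29 percentiles.

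On chromosome 17 the basal peaks at 63102769 to 63104843 and at 77789115 to 77790964 ranked at 98.25 and 98.95% of the basal list, and their single PHE peaks at 1.47 and 2.33% of the PHE list. The chromosome 10 site went against its class. Its basal peak at 38747830 to 38750207 (percentile 98.97) held a PHE peak at the 3.09 percentile and, beside it, another at 38748486 to 38749071 at the 99.15 percentile. Seen over the whole basal peak, this site ranked high in both lists. The remaining sites were at 140166647 to 140168983 (PHE percentile 1.78) and 221542659 to 221545606 (4.25) of chromosome 2, 159290836 to 159293617 (1.10) of chromosome 1 and 63576789 to 63579266 (1.88) of chromosome 8. At the second chromosome 2 site a further PHE peak was at the 27.14 percentile.

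**Figure D2:**
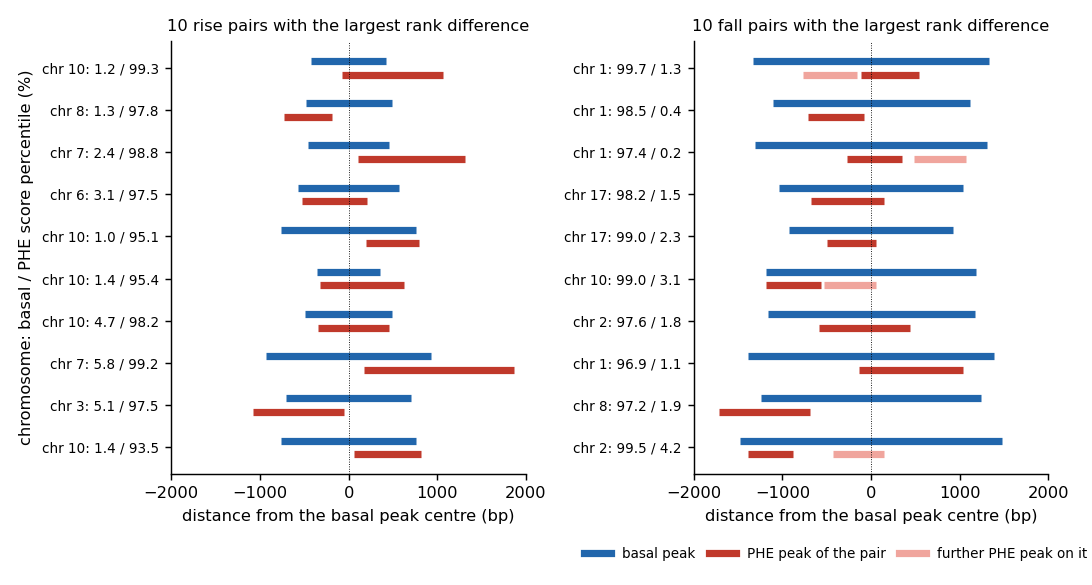
Basal peaks (blue), the PHE peak of the pair (red) and further PHE peaks on the same basal peak (pale red) are drawn to scale around the basal peak centre (x axis, bp), for the 10 rise pairs (left) and the 10 fall pairs (right) with the largest rank difference; labels give the basal and PHE percentile. In the rise pairs the PHE peak often extends past the basal peak, and in 9 of the 10 fall pairs it lies wholly inside a basal peak of at least 1850 bp.

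Peak width separated the classes. Fall pairs joined a broad basal peak, with a median of 2039 bp (quartiles 1616 and 2633), to a PHE peak of 655 bp (566 and 851). Rise pairs joined a basal peak of 1100 bp (935 and 1436) to a PHE peak of 866 bp (628 and 1094). The median ratio of basal to PHE width was 2.98 (2.88 to 3.09) in fall pairs and 1.32 (1.28 to 1.43) in rise pairs, with 2.00 (1.98 to 2.03) over all pairs. Fall pairs thus lay above the overall ratio and rise pairs below it.

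The widths were also set beside those of pairs that ranked alike in both lists. The basal peaks of rise pairs were close to those of pairs low in both lists (median 1043 bp), and the basal peaks of fall pairs were wider than those of pairs high in both lists (1862 bp). The PHE peaks of rise pairs were narrower than those of pairs high in both lists (1024 bp), and those of fall pairs were wider than those of pairs low in both lists (586 bp). Score and width went together in the basal list (Spearman's rho 0.55 over its peaks) and less so in the PHE list (0.19). When the percentile was taken within 10 equal classes of peak width, the median ratios were 2.12 (1.97 to 2.31) in rise and 1.96 (1.89 to 2.08) in fall pairs, in the opposite order and with overlapping intervals. Only 103 of the 250 rise pairs and 271 of the 669 fall pairs remained members then. The contrast in width is not independent of the scores that chose the pairs.

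**Figure D3:**
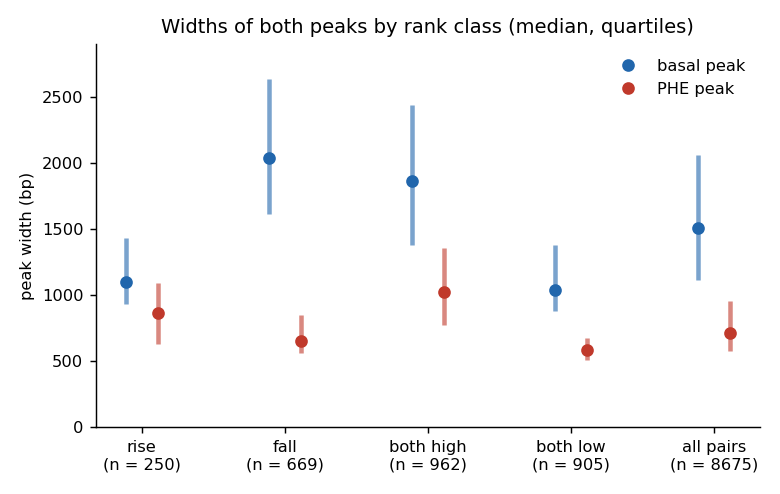
Points give the median width (y axis, bp) and bars the quartiles of the basal (blue) and PHE (red) peaks of rise pairs, fall pairs, pairs in the top 10% of both lists, pairs in the lower 50% of both lists and all pairs. The gap is widest in fall pairs (2039 against 655 bp) and narrowest in rise pairs (1100 against 866 bp).

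The classes differed in how both peaks lay on each other, which is not independent of the peak widths. In 80.9% of fall pairs (77.7 to 83.7%) the PHE peak lay wholly inside the basal peak, and in 39.2% of rise pairs (33.4 to 45.4%), with 64.9% over all pairs. Pairs high in both lists had it in 75.47% (72.65 to 78.08%), an interval that overlapped that of fall pairs. Pairs low in both lists had it in 49.8% (46.6 to 53.1%), above rise pairs but below all pairs. With percentiles taken within 10 classes of peak width, the PHE peak lay inside in 63.2% of rise pairs (57.4 to 68.7%). In fall pairs it then did so in 68.2% (64.2 to 71.95%), and the intervals overlapped. The PHE peak was the wider one in 61 of 250 rise pairs (24.4%, 19.5 to 30.1%) and in 1 of 669 fall pairs. A basal peak wholly inside the PHE peak was found in 10 rise pairs and in 0 of 669 fall pairs, which allows a share of up to 0.448%. Overlaps of under 50% of the narrower peak made up 17.2% of rise pairs (13.0 to 22.4%) and 4.19% of fall pairs (2.91 to 5.98%). In pairs low in both lists the share was 17.1%, and in pairs high in both lists 0.832%. Such overlaps thus made up a larger share of both groups with a low basal peak than of both groups with a high one. Among pairs with a high basal peak the share was larger where the PHE peak was low. Low basal peaks were also narrower, and the part of width in these shares was not tested.

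Peak centres lay farther apart in fall pairs, by a median of 356 bp (328 to 391), than in rise pairs, at 237 bp (194 to 292). Relative to the basal peak the order was the other way, since basal peaks of fall pairs were broader. The centre distance was 36.2% of the distance from the basal peak's centre to its edge in fall pairs and 41.7% in rise pairs, with overlapping intervals (33.2 to 38.7% and 33.0 to 49.8%). In pairs high in both lists it was 23.3% (21.6 to 25.2%), so the high basal peaks of fall pairs met their PHE peak farther from the centre than those that stayed high. Over all pairs it was 34.0% (33.3 to 34.9%), within the interval of fall pairs, and in pairs low in both lists 44.5%. The basal peak met several PHE peaks in 17.8% of fall pairs and in 6.4% of pairs high in both lists. The median ratio of basal to PHE width was 2.98 in fall pairs and 1.705 in pairs high in both lists. A PHE peak that is narrow against its basal peak can lie farther from the centre and still be inside it. The parts of several partners and of the width ratio in the centre distance were not tested.

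Some fall pairs were parts of a broad basal peak that met several PHE peaks. The 669 fall pairs rested on 647 basal peaks, and 97 of these (15.0%, 12.4 to 18.0%) overlapped more than 1 PHE peak. Of all 2412 shared basal peaks in the top 10%, 158 did (6.55%, 5.63 to 7.61%). A basal peak with more partners has more chances to form a fall pair. Of the 97, 20 met PHE peaks of the lower 50% only, while 24 also met a PHE peak of the top 10%, as on chromosome 10 above. Basal peaks with several PHE partners had a median width of 2297 bp, and those with 1 partner 1987 bp. When each basal peak in the top 10% was represented by its best-scoring partner, 570 of 2412 (23.6%, 22.0 to 25.4%) had that partner in the lower 50%. In 7 of 250 rise pairs (2.80%, 1.36 to 5.67%) the PHE peak met more than 1 basal peak, against 0.669% (0.518 to 0.863%) of all pairs. By best-scoring partner, 244 of 2101 PHE peaks in the top 10% (11.6%, 10.3 to 13.1%) had a low basal partner.

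Among pairs with a high peak, the share with a low partner was smaller at higher ranks of the high peak. For pairs with a high PHE peak it was 16.6% (14.2 to 19.4%) between the 90th and 95th percentiles and 3.93% (2.36 to 6.49%) in the top 1%. For pairs with a high basal peak it was 28.8% (26.2 to 31.5%) and 14.1% (10.9 to 18.0%) in the same strata. In both directions the top 1% of a list thus had a smaller share of low partners than the ranks just inside the top 10%.

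By width the classes ran in opposite directions. Among pairs with a basal peak of the top 10%, 9.48% (5.38 to 16.2%) of those with a basal peak under 1000 bp had a PHE peak in the lower 50%, against 30.6% (26.0 to 35.7%) of those with a basal peak of at least 3000 bp. Among pairs with a PHE peak of the top 10%, 19.6% (13.9 to 26.8%) of those with a PHE peak under 500 bp had a basal peak in the lower 50%, against 6.64% (4.34 to 10.0%) of those with a PHE peak of at least 1500 bp. Pairs with a broad high basal peak more often had a low PHE peak, and pairs with a narrow high PHE peak more often had a low basal peak. A basal peak with several PHE partners enters these shares once per partner, and the part of this in the basal trend was not tested.

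**Figure D4:**
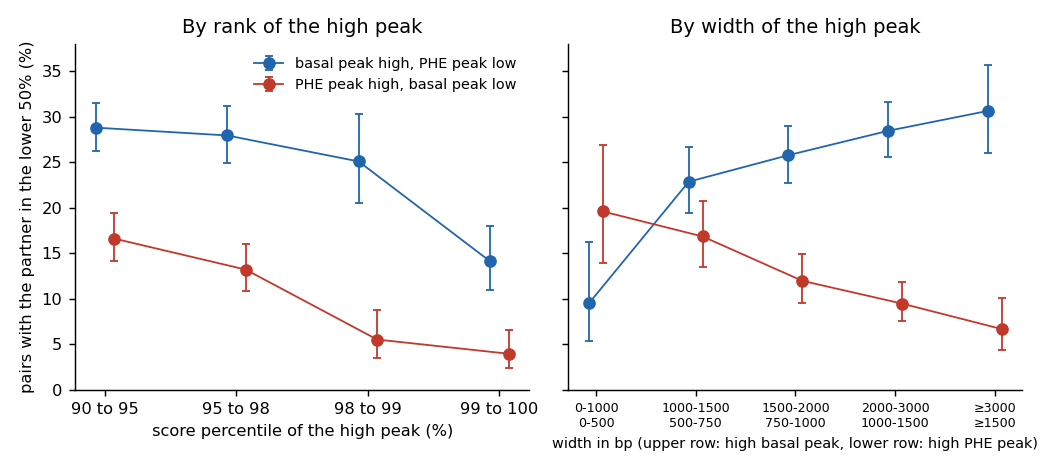
The y axis gives the share (%) of pairs with a high peak (top 10% of its list) whose partner is in the lower 50% of the other list, with Wilson 95% intervals, by percentile of the high peak (left) and by its width in bp (right). The blue line, for high basal peaks, climbs with width from 9.48 to 30.6%, and the red line, for high PHE peaks, drops from 19.6 to 6.64%.

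Fall pairs outnumbered rise pairs on each of the 20 chromosomes. Rise pairs made up between 1.21% of the pairs of a chromosome, on chromosome 18 (0.412 to 3.50%), and 4.35%, on chromosome 10 (3.03 to 6.22%). Fall pairs made up between 5.30%, on chromosome 12 (3.18 to 8.70%), and 9.58%, on chromosome 1 (7.95 to 11.5%). The intervals of the lowest and highest chromosome overlapped for both classes. For fall pairs, chromosome 4, with 508 pairs, was nearly as low (5.315%, 3.68 to 7.62%), and its interval lay below that of chromosome 1. That comparison was picked from 20 chromosomes and was not tested. The excess of fall pairs held under the 1 bp rule but turned when the overlap had to cover 50% or more of each peak, which left 146 rise and 99 fall pairs. That rule leaves out a narrow peak inside a broad one, the usual shape of a fall pair.

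Members lay in 671 of the 1879 bins of 1 Mb that held a pair, and 76 bins held both classes. How an equal number of pairs at large would spread over these bins was not examined. A bin held at most 2 rise pairs and at most 4 fall pairs. The bin with the most members, on chromosome 10 at 91000001 to 92000000, had 2 rise and 3 fall pairs among 12 pairs. The bins with 4 fall pairs were 114000001 to 115000000 of chromosome 7, 89000001 to 90000000 of chromosome 10 and 38000001 to 39000000 of chromosome 20. The last had the fewest shared sites, with 4 of its 7 pairs being fall pairs. Within 5 Mb of an end of the chromosome span lay 8.80% of rise pairs (5.88 to 13.0%) and 10.6% of fall pairs (8.50 to 13.2%), against 8.89% of all pairs.

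The shares of members with another member within 100 kb were set beside those of all pairs. Of the 250 rise pairs, 32 (12.8%, 9.21 to 17.5%) had a fall pair within 100 kb and 20 (8.0%, 5.24 to 12.0%) had another rise pair within that distance. Of the 669 fall pairs, 50 (7.47%, 5.71 to 9.72%) had another fall pair and 33 (4.93%, 3.53 to 6.85%) a rise pair within 100 kb. Of all 8675 pairs, 10.1% (9.50 to 10.8%) had a fall pair and 4.78% (4.35 to 5.25%) a rise pair that near. The fall pairs' share with another fall pair was thus below that of all pairs and the rise pairs' share with another rise pair above it, with overlapping intervals in both cases.

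Shared sites around the members did not show the members' change of rank. For 234 rise pairs with other pairs within 500 kb, the median PHE percentile minus basal percentile of those neighbours was -4.22 (-6.32 to -1.24). For 636 fall pairs it was -5.12 (-6.49 to -3.25), and for all pairs -4.04 (-4.43 to -3.59). The neighbours of rise and of fall pairs thus had nearly the same difference, with overlapping intervals. Within 50 kb the medians were -4.82 (-9.60 to -0.145) around rise pairs and -1.65 (-6.88 to 0.178) around fall pairs. At that distance 125 rise and 299 fall pairs had a neighbour, and the intervals overlapped.

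**Figure D5:**
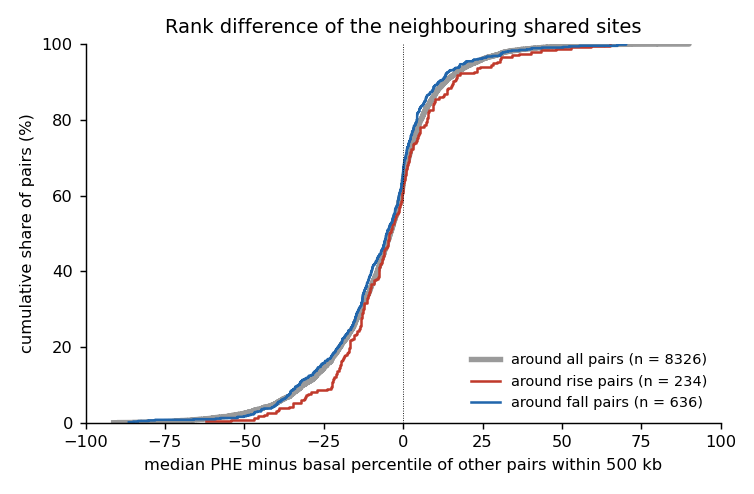
Cumulative share of pairs (y axis, %) by the median rank difference of the other shared sites within 500 kb (x axis, PHE minus basal percentile), for rise pairs (red), fall pairs (blue) and all pairs (grey). The lines run close together around medians of -4.22, -5.12 and -4.04.

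The numbers of calls around the members were also alike on this scale. Within 500 kb, PHE peaks made up 45.0% (44.2 to 45.9%) of the other calls around rise pairs and 45.6% (45.0 to 46.1%) around fall pairs, with 45.5% around all pairs. These intervals are over 13934 and 34548 counted calls. A call near several pairs was counted for each of them, so the intervals are too narrow. The median number of other calls of both lists was 56 (52 to 59) around rise pairs, 50 (49 to 53) around fall pairs and 54 around all pairs. Another basal peak of the top 10% lay within 50 kb of 28.8% of rise and 29.6% of fall pairs, and another PHE peak of the top 10% within 50 kb of 30.0 and 30.6%.

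Close to the sites the basal calls differed. A basal call outside the pair lay within 10 kb of 55.2% of rise pairs (49.0 to 61.2%), 39.2% of fall pairs (35.5 to 42.9%) and 47.2% of all pairs. Within 1 kb the shares were 10.0% (6.87 to 14.3%), 3.89% (2.67 to 5.63%) and 6.22%. In pairs low in both lists the shares were 48.6% (45.4 to 51.9%) within 10 kb and 7.40% (5.87 to 9.295%) within 1 kb. In pairs high in both lists they were 44.7% (41.6 to 47.9%) and 6.03% (4.69 to 7.715%). At both distances the interval of rise pairs overlapped that of pairs low in both lists. The interval of fall pairs overlapped that of pairs high in both lists. PHE calls outside the pair lay within 10 kb of 40.4% of rise pairs (34.5 to 46.6%), 38.3% of fall pairs (34.7 to 42.0%) and 39.1% of all pairs. Within 1 kb they were found at 3.20% of rise pairs (1.63 to 6.19%), 5.08% of fall pairs (3.66 to 7.02%) and 4.06% of all pairs. The intervals of rise and fall pairs overlapped for PHE calls at both distances and lay apart for basal calls. When PHE peaks on the pair's own basal peak were counted too, another PHE peak lay within 10 kb of 41.6% of rise pairs (35.7 to 47.8%) and 47.7% of fall pairs (43.9 to 51.5%).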

How the data were processed

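HMGB2 ChIP-seq was analysed from 1 peak list per library, 1 basal and 1 PHE. The submitters' processing notes name Bowtie 0.12.7, MACS 1.4.1 and the build rn4. Per the file headers the lists are bedGraph tracks, and the deposited score of each peak is the authors' own. No source used here gives its scale, a control library, the calling threshold or later filters. Printed starts have 1 added to the deposited start; a start of 1 occurs in both lists, so they may be 1 bp too high. Gene annotation and sequence of rn4 were not used here, so no site is placed in a gene.

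Tied scores shared their mean rank. High means above the 90th and low at or below the 50th percentile. Numbers of other calls within 500 kb were counted by peak midpoint, from the outer edges of a pair, without its own peaks. Another peak within 10 or 50 kb, and calls outside the pair, were taken by the gap between edges. The term "outside the pair" covers calls overlapping neither peak. Neighbouring shared sites were taken by the distance between basal peak midpoints, without pairs sharing a peak. Shares carry Wilson intervals and medians exact binomial ones. Calculations used Python 3.11.15 with scipy 1.17.1, numpy 2.4.6 and pandas 2.3.3, and figures matplotlib 3.10.9. The pairing was checked against bedtools 2.31.1, which also gave 8675 pairs. The code of the membership rule was checked on simulated lists with rise and fall pairs planted by the same thresholds. That is a check of the code only. The text names the 10 rise and 10 fall pairs with the largest percentile difference, and those next to each threshold. The members and measures were chosen with earlier results of these data known.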

Additional observations from a re-analysis of the deposited data

How the results depend on the processing

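Leaving out a library was not possible with 1 per condition, read depth is unknown, and the alternatives concern the rule only. No paired analysis was possible because there was 1 basal and 1 PHE library. The planned look at gene features and sequence was not run. Of 13 alternatives, 3 were chosen after seeing the data: an overlap of 50% of the narrower peak, peaks set to 600 bp for pairing, and percentiles within 10 classes of width.

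An overlap of at least 50% of both peaks left 146 rise and 99 fall pairs, with width ratios of 1.23 and 1.68. This turned the excess of fall pairs, which the other 12 alternatives kept. A lower limit of 25% left 93 rise and 309 fall pairs, with a ratio of 3.15 in fall pairs and a PHE share of 43.8% of the other calls around rise pairs. With the top 5% there were 119 and 349 pairs, a ratio of 3.09 in fall pairs, and 30.3% of rise pairs with the PHE peak inside. With the top 20% there were 484 and 1166 pairs, ratios of 1.48 and 2.82, and 77.3% of fall pairs with the PHE peak inside. Shares with the PHE peak inside were, for rise and fall, 27.4 and 70.1% with gaps of up to 1 kb. They were 47.3 and 84.4% with 50% of the narrower peak. With peaks set to 600 bp for pairing only, they were 48.3 and 91.4%, with a ratio of 2.71 in fall pairs. These values at 600 bp were taken on the deposited peak edges. Percentiles within 10 classes of width gave ratios of 2.12 and 1.96, shares inside of 63.2 and 68.2%, and a PHE share of 46.3% around fall pairs. The order of the ratios turned there, with overlapping intervals, and the intervals of the shares inside overlapped too. The cause was not tested. Under both percentiles 103 rise and 271 fall pairs were members.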
